A study of Mus musculus and Acomys cahirinus with 16 samples.

Results

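The epidermal differentiation complex is a gene cluster that holds most structural proteins of the cornified envelope, the cross-linked protein shell of dead surface keratinocytes. The genes described here are those whose symbol begins with Sprr or Lce, together with Flg, Flg2, Hrnr, Rptn, Tchh, Tchhl1, Crnn, Ivl, Crct1 and loricrin, which is listed as Loricrin for mouse and as Lor for spiny mouse. Pseudogenes and the S100 genes of the cluster were left out. By this rule there were 47 members among the 56980 mouse genes and 34 members among the 19818 spiny mouse genes, and 33 symbols were found in both. The mouse members comprised 16 Sprr genes, 21 Lce genes, 7 genes of the S100-fused type (Flg, Flg2, Hrnr, Rptn, Tchh, Tchhl1 and Crnn) and 3 others (loricrin, Ivl and Crct1), and the spiny mouse members 12, 12, 7 and 3 of the same kinds. All 47 mouse members lay on chromosome 3 of GRCm39 within 1.39 Mb, and all 34 spiny mouse members lay on scaffold_7 of the AcoCah2 assembly within 1.12 Mb.

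Skin RNA was sequenced from Mus musculus, called mouse here, and from the spiny mouse Acomys cahirinus, a rodent of another genus. There were 4 groups of 4 samples, untreated and treated skin of each species. The treatment was DMBA/TPA, a regimen in which DMBA (dimethylbenzanthracene) mutates DNA and TPA, a phorbol ester, promotes the outgrowth of mutated cells. The title of the series names resistance of spiny mice to carcinogenesis by this regimen, and its design text describes irradiated fibroblasts, which the sample labels do not. Strain, sex, age, dose, schedule, time of sampling, and whether treated skin included tumour tissue are not given in the sources used here. No label says that the 4 samples of a group came from separate animals, so p-values measure only the spread between these samples, which may be technical.

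As keratinocytes move outward they stop dividing, first make keratins 1 and 10, and then build the envelope beneath the plasma membrane. Involucrin is laid down early as a scaffold. Loricrin, the small proline-rich proteins (SPRR) and the late cornified envelope proteins (LCE) are then joined to it by transglutaminases. Filaggrin and its S100-fused relatives are large repeat proteins that begin with an S100-like calcium-binding domain. Filaggrin bundles keratin filaments and is later cut into amino acids that hold water in the cornified layer, while trichohyalin serves mainly in the inner root sheath of the hair follicle. SPRR proteins and the LCE3 subfamily are known for their rise in wounded, inflamed or otherwise stressed epidermis, whereas loricrin and LCE1 belong to normal cornification.

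Because the members lie side by side and several moved together, the 200 bases before each mouse start site were read from GRCm39. Start sites were those of the GENCODE M39 canonical transcripts. Searched on both strands were the AP-1 motif TGANTCA (bound by Jun and Fos dimers), the octamer ATGCAAAT (bound by Oct factors), the grainyhead motif AACNNGTT, the TATA box TATAAA and the Sp1 motif GGGCGG. The sequences below are shown as examples of members that rose (Sprr2d, Sprr2k, Sprr1a, Ivl and Lce3f) and of members that fell (Loricrin, Flg2 and Lce1m). In them capitals mark the AP-1 motif and the octamer, and each runs 5′ to 3′ toward the start site.
Sprr2d (chr3:92246247-92246446, plus strand): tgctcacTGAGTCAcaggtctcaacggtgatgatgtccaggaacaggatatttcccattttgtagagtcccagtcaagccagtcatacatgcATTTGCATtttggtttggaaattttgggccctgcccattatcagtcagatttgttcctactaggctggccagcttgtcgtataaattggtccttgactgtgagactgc
Sprr2k (chr3:92339689-92339888, plus strand): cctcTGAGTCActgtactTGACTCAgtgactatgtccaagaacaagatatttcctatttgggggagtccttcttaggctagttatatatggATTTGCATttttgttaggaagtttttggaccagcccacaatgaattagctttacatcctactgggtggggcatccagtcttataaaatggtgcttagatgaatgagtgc
Sprr1a (chr3:92393209-92393408, minus strand): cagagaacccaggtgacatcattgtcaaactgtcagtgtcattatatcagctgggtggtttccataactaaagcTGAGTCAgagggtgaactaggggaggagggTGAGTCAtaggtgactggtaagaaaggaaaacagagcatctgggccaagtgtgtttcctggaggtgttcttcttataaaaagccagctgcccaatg
Ivl (chr3:92481043-92481242, minus strand): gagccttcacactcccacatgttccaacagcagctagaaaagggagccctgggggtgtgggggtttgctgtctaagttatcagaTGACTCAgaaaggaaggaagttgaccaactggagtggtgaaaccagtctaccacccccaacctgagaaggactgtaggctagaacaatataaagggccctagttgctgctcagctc
Loricrin (chr3:91990450-91990649, minus strand): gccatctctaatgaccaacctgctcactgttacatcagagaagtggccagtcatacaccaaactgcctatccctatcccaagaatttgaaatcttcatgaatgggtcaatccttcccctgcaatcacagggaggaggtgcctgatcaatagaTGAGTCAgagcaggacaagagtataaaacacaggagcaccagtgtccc
Flg2 (chr3:93104385-93104584, plus strand): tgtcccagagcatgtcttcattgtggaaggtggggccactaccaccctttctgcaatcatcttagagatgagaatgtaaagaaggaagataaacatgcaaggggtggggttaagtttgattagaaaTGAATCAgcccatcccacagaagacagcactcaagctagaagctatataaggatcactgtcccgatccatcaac
Lce3f (chr3:92899333-92899532, plus strand): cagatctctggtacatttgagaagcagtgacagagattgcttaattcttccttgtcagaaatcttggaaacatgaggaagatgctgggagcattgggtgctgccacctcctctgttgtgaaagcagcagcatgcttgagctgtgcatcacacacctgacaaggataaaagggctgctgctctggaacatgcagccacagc
Lce1m (chr3:92926368-92926567, minus strand): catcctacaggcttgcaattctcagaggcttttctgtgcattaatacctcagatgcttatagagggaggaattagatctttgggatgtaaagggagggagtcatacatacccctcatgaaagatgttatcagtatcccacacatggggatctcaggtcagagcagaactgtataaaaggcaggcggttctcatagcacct
The AP-1 motif stood in 10 of 16 Sprr windows (62.5%), in 0 of 21 Lce windows, and in 1074 (4.94%) of the 21757 windows of all protein-coding genes. By response in mouse, described further on, it stood in 14 of the 31 windows of members that rose (45.2%) and in 2 of the 4 of members that fell, and in 0 of the 11 of members not called. This split largely follows the families. The 10 Sprr windows with the motif, 8 of them of Sprr2 genes, were all of members that rose. Of the members not called 9 were Lce genes, and the 10 Lce members that rose also lacked the motif. Outside the Sprr genes the motif was found before Loricrin, Ivl, Crnn, Flg2, Rptn and Tchhl1. The octamer stood in 8 of 11 Sprr2 windows and 1.24% of all windows. In 7 of those 8 it lay on the reverse strand and began 108 to 112 bases before the start, and an AP-1 motif began 193 to 198 bases before the start. The Sprr2 windows without either motif were those of Sprr2a1, Sprr2a2 and Sprr2a3, whose canonical transcripts ran from 2880 to 3003 bases against 609 to 836 bases for the other Sprr2 genes. A TATA box was found in 13 of 16 Sprr windows and 3 of 21 Lce windows, against 9.57% of all windows, the grainyhead motif in 2 of 47 member windows (2.97% of all), and the Sp1 motif in 1 of 47 (34.8% of all). The windows of Flg and Lce6a overlap an annotated exon of the same gene and that of Rptn an exon of Gm37857. These matches describe letters in a window, and no binding was measured.

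Total counts ran from 19608787 to 30198281 per mouse library and from 21143918 to 30561256 per spiny mouse library. Values are CPM, counts relative to the library total, after scaling between libraries, with mean ± SD over 4 libraries. Keratinocyte markers (Krt5, Krt14, Dsp and 6 others) were present in every library, and 6 of 9 rose and 1 fell in mouse while 5 of 9 rose in spiny mouse. Their sum was 8819 to 14940 CPM in untreated and 23920 to 30190 CPM in treated mouse skin, and 13680 to 15520 and 23300 to 29130 CPM in spiny mouse. In mixed skin RNA, fewer cells of a type and less RNA per cell cannot be told apart. Untreated mouse replicate 2 stood apart: it had the lowest keratinocyte sum, Krt10 at 1422 CPM against 3583 to 4458 CPM in the other untreated libraries, and keratins of the hair's inner root sheath at 1669 CPM against 3.23 to 26.3 CPM. In spiny mouse the same hair keratins were highest in untreated replicates 1 and 2 (7508 and 8850 CPM) and, within the treated group, in replicates 3 and 4 (2517 and 941 CPM against 156 and 178 CPM). Untreated mouse replicate 1 also held liver markers, with Alb at 396 CPM against 1.40 to 3.42 CPM in the other untreated libraries. Skeletal muscle markers were lower after treatment in both species, in 7 of 7 tested genes in mouse and 6 of 6 in spiny mouse.

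In mouse skin, treatment raised most of the tested cornified envelope genes. By median log2 fold change Sprr (5.44) and Lce3 (5.06) rose most, followed by the S100-fused genes (4.46). The Sprr genes other than Sprr2 had a lower median of 2.80. The S100-fused median is the value of Tchh, which moved with the hair keratins, and the 7 S100-fused genes ranged from -2.92 to 5.23. A gene was called when its adjusted p from the edgeR quasi-likelihood test over all genes was under 0.05. Of the 46 members tested, 35 were called, where 61.2% of all 19740 tested genes were. Of these 31 rose and 4 fell, beside 25.9% and 35.3% of all tested genes. The 4 treated libraries lay above all untreated ones for 33 members (26.6% of all genes) and below them for 2 (32.0%). The median log2 fold change of the tested members was 2.88, against -0.15 over all tested genes. All 15 tested Sprr genes and all 6 Lce3 genes rose, the Lce1 genes were divided, and Flg and Flg2 went in opposite directions. Together the members made up 0.518% of CPM in untreated and 1.25% in treated mouse skin, of which Tchh, Tchhl1 and Crnn, which moved with the hair keratins, made up 0.0218% and 0.503%. Without these 3 the share was 0.496% and 0.750%, and the groups overlapped. When libraries were scaled to the keratinocyte markers, 27 members rose and 13 fell, and without untreated replicate 2, 33 rose and 9 fell.

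**Figure D1:**
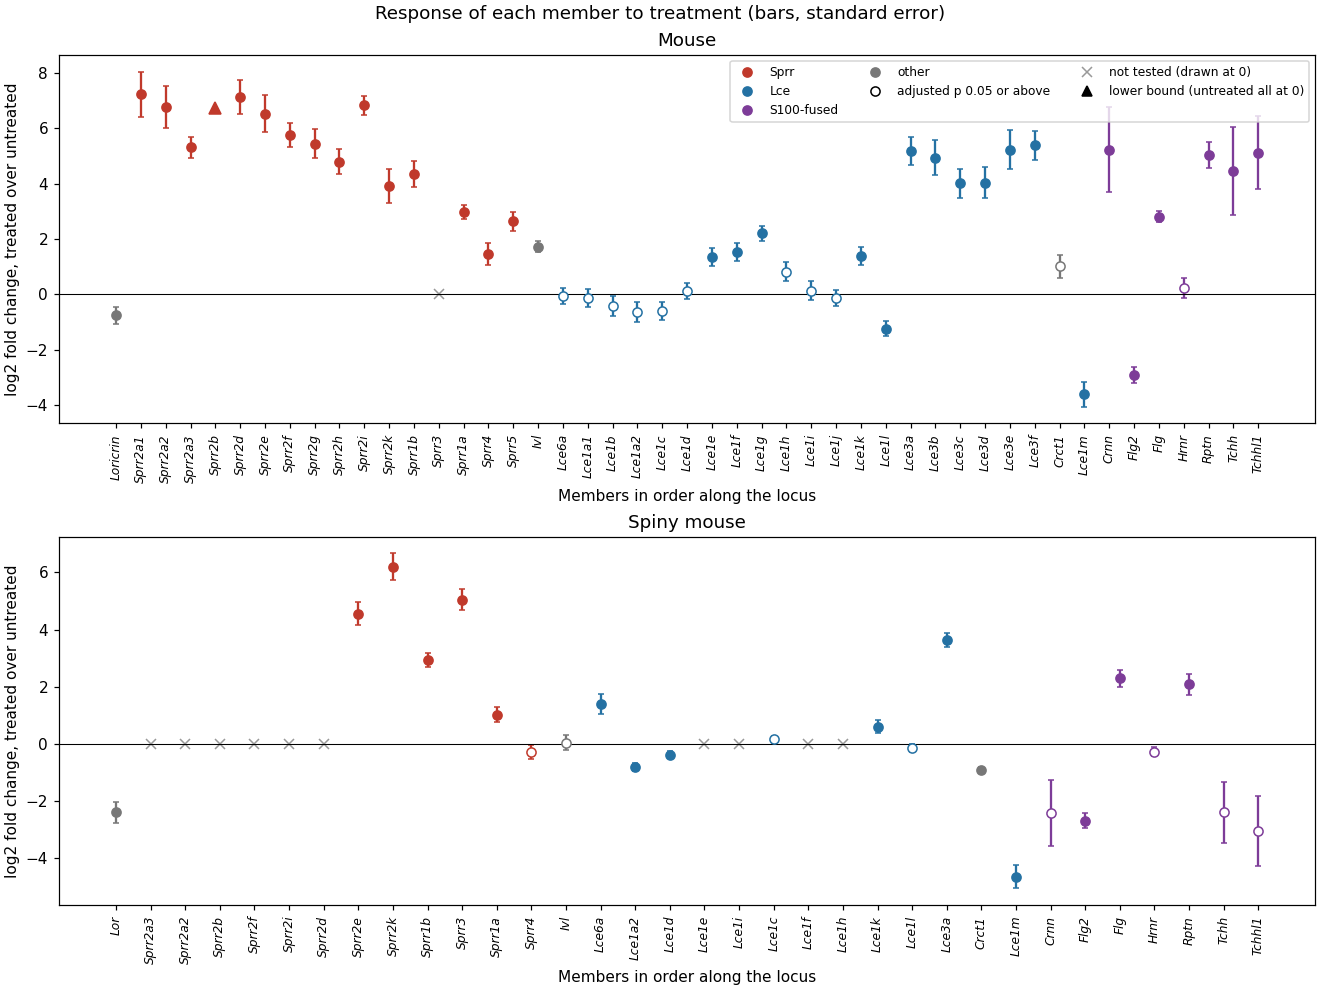
Log2 fold change (treated over untreated, y axis) of each member in its order along the locus, mouse above and spiny mouse below; bars are standard errors, filled points passed adjusted p under 0.05, crosses were not tested and the triangle is a lower bound. In mouse the Sprr block and the Lce3 block sit high with the Lce1 genes around 0 between them, while in spiny mouse 10 members rose and 6 fell.

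The small proline-rich proteins, short cross-bridging proteins of the envelope, rose as a block. Sprr1a was at 127, 70.0, 82.6 and 96.8 CPM in the untreated mouse libraries and at 529, 803, 903 and 712 CPM in the treated ones. The groups did not overlap, and Sprr1a had the highest length-scaled level of any member in treated mouse skin (914 ± 197 RPKM, SD, n = 4). Its log2 fold change was 2.97 (SE 0.24, adjusted p 2.08e-05). Sprr1b was at 7.13, 1.75, 4.80 and 10.7 CPM untreated and 126, 146, 141 and 80.9 CPM treated, a log2 fold change of 4.35 (SE 0.48, adjusted p 8.97e-05). Sprr5 went from 63.6 ± 29.0 to 395 ± 27.8 CPM and Sprr4 from 43.0 ± 21.5 to 118 ± 21.1 CPM, with log2 fold changes of 2.63 and 1.46. Sprr4 was the smallest rise in the family, and under scaling to keratinocyte markers it was no longer called (log2 fold change 0.58, adjusted p 0.13). Sprr3, better known from oral and oesophageal lining, had almost no counts and was not tested.

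The Sprr2 genes started from very low levels. Their summed level was 10.3, 1.58, 6.48 and 15.1 CPM in the untreated mouse libraries and 761, 530, 813 and 531 CPM in the treated libraries. All 11 rose, with a median log2 fold change of 6.52. The most abundant after treatment was Sprr2d, at 1.51, 0.132, 1.61 and 3.14 CPM untreated and 210, 182, 291 and 211 CPM treated (log2 fold change 7.13, SE 0.63, adjusted p 2.83e-05). Sprr2i had 0.110 to 0.228 CPM untreated and 11.1 to 23.5 CPM treated, a log2 fold change of 6.83 (SE 0.35). Sprr2b was at 0 counts in all 4 untreated libraries and at 13.6, 11.5, 24.2 and 8.50 CPM after treatment, at least 105.8-fold higher when the untreated group is set to the level of 3 counts in the untreated library where that level is highest. Sprr2k stayed low in mouse, at 0.842 ± 0.118 CPM after treatment. Sprr2a1 and Sprr2a2 share 98.8% and 96.5% of their 50-base windows with other Sprr2 transcripts, and Sprr2a3 shares 61.1%. Their separate counts are therefore uncertain, since reads mapping to several places were not counted.

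**Figure D2:**
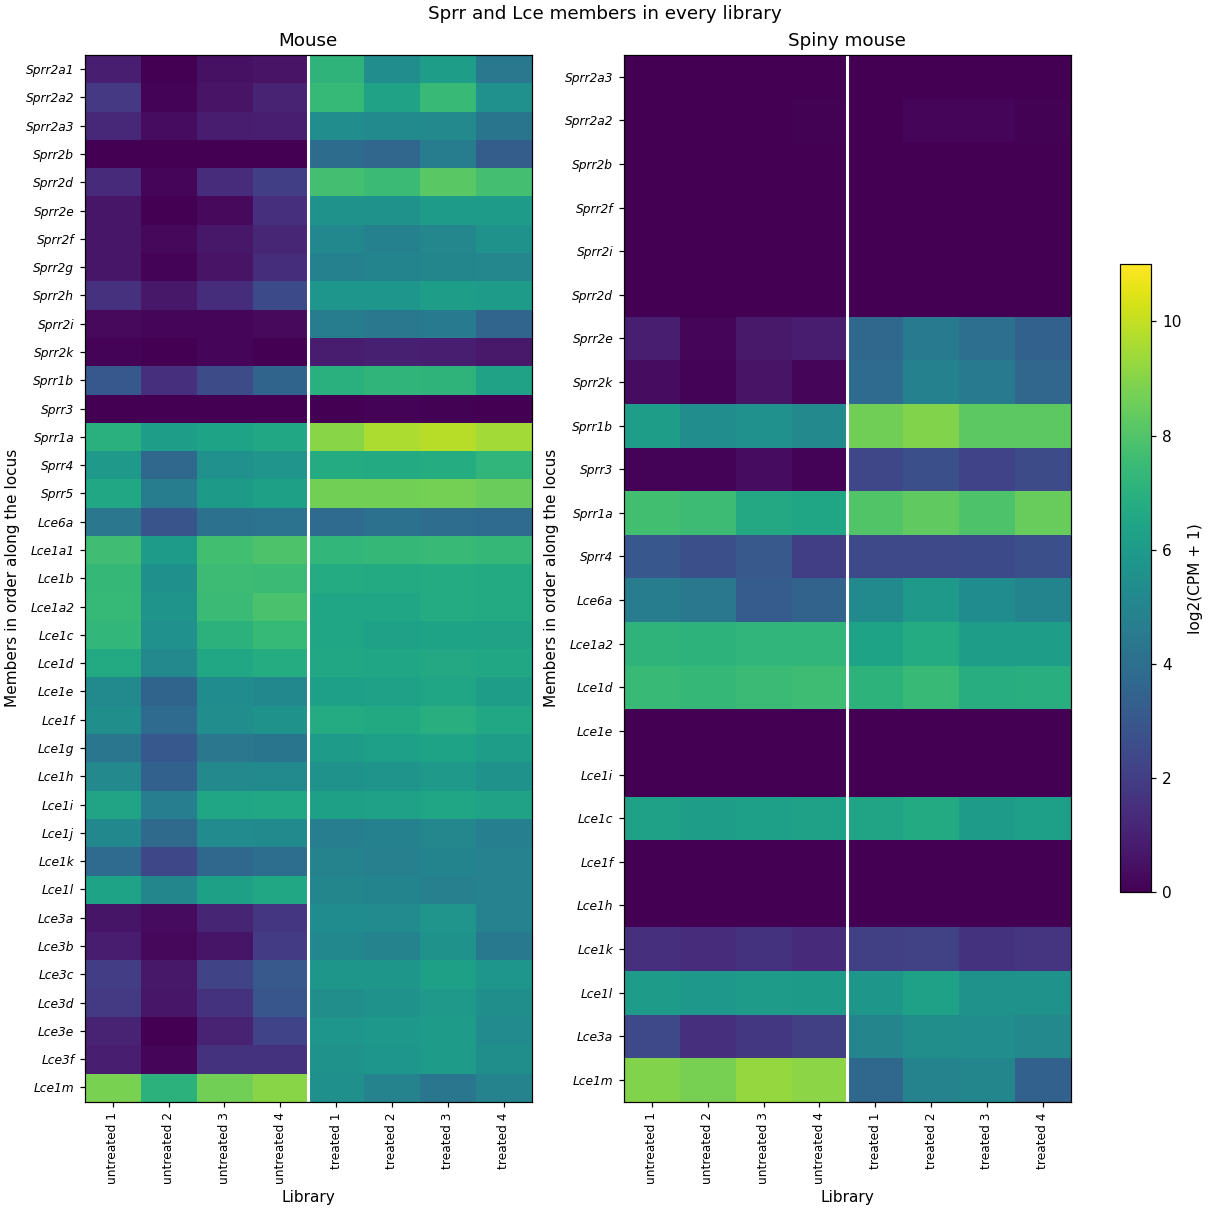
Levels of Sprr and Lce members as log2(CPM + 1) (colour) in each library (columns), in order along the locus (rows), mouse left and spiny mouse right. In mouse the Sprr2 and Lce3 rows change from dark to bright at the treatment border and Lce1m changes the other way; 9 of the dark spiny mouse rows are gene models that share exon bases with a neighbour.

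The late cornified envelope genes moved by subfamily in mouse. Summed over the 6 Lce3 genes, the level was 8.96, 1.80, 10.8 and 25.1 CPM untreated and 273, 286, 368 and 229 CPM treated. Each Lce3 gene rose, by log2 fold changes of 4.0 (Lce3c) to 5.38 (Lce3f), and no untreated library reached the lowest treated one. Lce3f, whose printed window holds neither motif, was at 0.896, 0.132, 2.02 and 2.05 CPM untreated and 49.5, 54.3, 65.5 and 44.1 CPM treated (SE 0.52, adjusted p 4.62e-05). Between 12.1% and 49.3% of the 50-base windows of a Lce3 transcript occur in another Lce3 gene.

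The Lce1 subfamily, which dominates LCE expression in normal skin, was divided. Summed over 14 genes its level was 1574, 492, 1552 and 1817 CPM untreated and 1036, 1016, 1112 and 1014 CPM treated, and the groups overlapped because of untreated replicate 2. Of the 14 genes 4 rose, 2 fell and 8 were not called, with a median log2 fold change of -0.01. Those that rose were Lce1e (1.35), Lce1f (1.54) and Lce1g (2.20), which are consecutive in the locus, and Lce1k (1.38). Those that fell were Lce1l (-1.25) and Lce1m (-3.62). Under scaling to keratinocyte markers 2 rose (Lce1f and Lce1g) and 9 fell, as Lce1e and Lce1k were no longer called and Lce1a1, Lce1a2, Lce1b, Lce1c, Lce1d, Lce1i and Lce1j were called lower. Without untreated replicate 2, Lce1h also rose (0.61) and Lce1a1, Lce1b, Lce1a2, Lce1c and Lce1j also fell (-0.29 to -0.86).

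Lce1m showed the largest fall of any mouse member. It was at 440, 133, 406 and 526 CPM in untreated libraries and at 45.5, 29.5, 18.7 and 28.9 CPM in treated ones. The treated libraries all lay below the lowest untreated one, for a 12.3-fold lower fitted level (SE 0.44 on the log2 scale, adjusted p 0.000157). Per length it was the highest member of untreated skin in both species, at 396 ± 179 RPKM in mouse and 566 ± 84.0 RPKM in spiny mouse. Its transcript shares no 50-base window with another member, unlike the rest of Lce1, where 7.72% to 25.4% of windows are shared. Lce6a, which belongs to neither LCE1 nor LCE3, was at 14.98 ± 5.93 CPM untreated and 14.3 ± 1.35 CPM treated in mouse (log2 fold change -0.07, adjusted p 0.86).

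Loricrin and involucrin, the classical envelope proteins, went apart in mouse. Ivl was at 42.5, 24.7, 31.6 and 49.0 CPM untreated and 127, 132, 118 and 109 CPM treated, with no overlap (log2 fold change 1.72, SE 0.20, adjusted p 0.000123). Loricrin, the major protein of the mature envelope, was at 340, 158, 247 and 427 CPM untreated and 201, 216, 144 and 130 CPM treated. These groups overlapped. Its log2 fold change of -0.76 (SE 0.30) had an adjusted p of 0.0498, and the call was lost in 11 of 17 alternative settings. Crct1, cysteine-rich C-terminal 1, was at 281, 71.2, 344 and 372 CPM untreated and 473, 542, 539 and 603 CPM treated. The Crct1 groups did not overlap, but its log2 fold change of 1.01 (SE 0.41) missed the threshold (adjusted p 0.057). Without untreated replicate 2 it was 0.79 with an adjusted p of 0.000152.

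Filaggrin and filaggrin-2, neighbours with closely related roles, moved in opposite directions in mouse. Flg was at 181, 228, 136 and 200 CPM untreated and 1425, 1377, 1308 and 1081 CPM treated, a 6.97-fold rise (log2 fold change 2.80, SE 0.20, adjusted p 1.23e-05). Flg2 was at 1926, 1472, 2108 and 3056 CPM untreated and 374, 285, 191 and 281 CPM treated, a 7.58-fold fall (log2 fold change -2.92, SE 0.29, adjusted p 5.5e-05). For each gene every treated library lay beyond every untreated one. Hornerin (Hrnr), another filaggrin relative, did not change by the test, at 401 ± 170 CPM untreated and 469 ± 99.2 CPM treated (log2 fold change 0.23, adjusted p 0.59). Scaled to keratinocyte markers, Hrnr had a log2 fold change of -0.71 (adjusted p 0.044). Repetin (Rptn), an envelope protein of the upper epidermis, was at 50.9, 11.2, 46.1 and 42.8 CPM untreated and 1340, 1379, 1403 and 811 CPM treated. This 32.7-fold rise (log2 fold change 5.03, SE 0.48, adjusted p 4.43e-05) had a larger size than the changes of Flg, Flg2 and Hrnr.

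Trichohyalin (Tchh), trichohyalin-like 1 (Tchhl1) and cornulin (Crnn) followed the hair keratins across libraries. Tchh was at 5.66, 772, 12.2 and 6.56 CPM untreated and 3683, 4616, 4535 and 4675 CPM treated in mouse. The inner root sheath keratins summed to 3.95, 1669, 26.3 and 3.23 CPM untreated and 18230, 19220, 18130 and 19740 CPM treated in the same libraries. Tchhl1 was at 0.651, 44.2, 1.36 and 1.002 CPM untreated and 376 to 461 CPM treated, and Crnn at 0.122, 26.4, 0.183 and 0 CPM untreated and 229 to 271 CPM treated. All 3 were called higher (log2 fold changes 4.46, 5.12 and 5.23; adjusted p 0.034, 0.0086 and 0.016), and all 7 inner root sheath keratins rose too. The part of hair follicle content in these changes was not tested. The Tchh call was lost in 8 of 17 settings, and without untreated replicate 2 the log2 fold changes of Tchh, Tchhl1 and Crnn were 9.15, 8.74 and 11.19. Of the exon bases of Tchh 24.1% lie in the antisense gene Gm56800, and the counting command names no strand option.

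**Figure D3:**
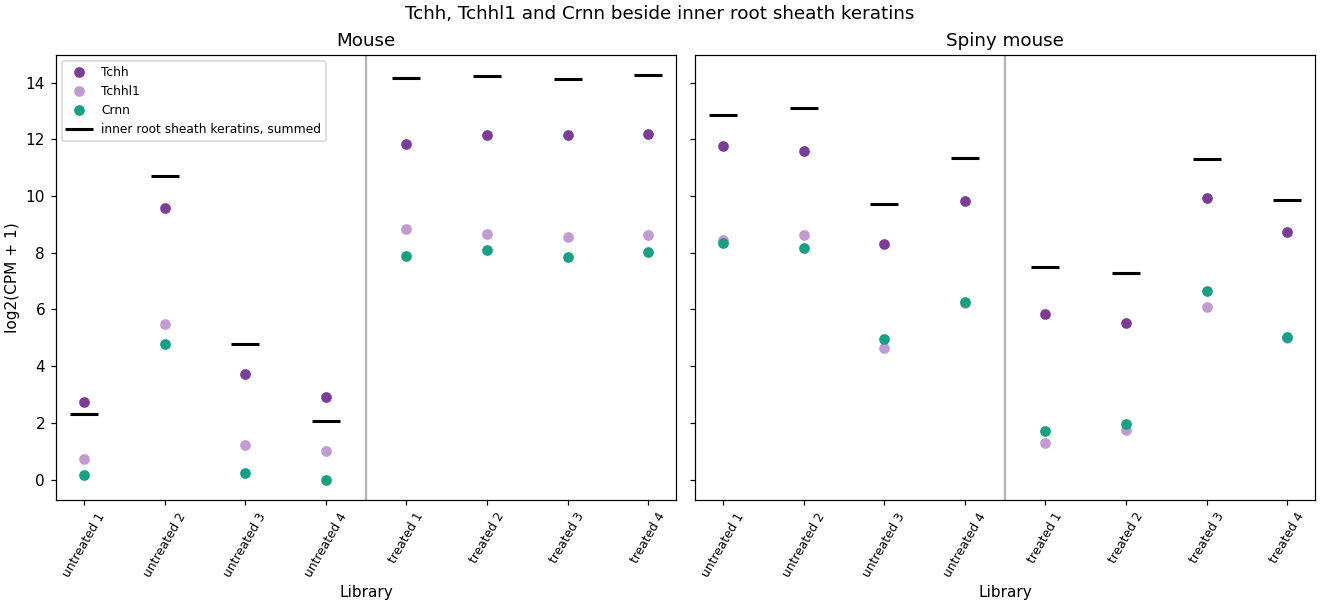
Levels as log2(CPM + 1) (y axis) of Tchh, Tchhl1 and Crnn (points) and of the summed inner root sheath keratins (bars) in each library (x axis), mouse left and spiny mouse right. All 4 sets share their highs and lows: untreated mouse replicate 2 stands above the other untreated mouse libraries, and spiny mouse untreated 1 and 2 above the rest.

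In spiny mouse skin the tested members divided more evenly between rises and falls, but they were not the same set as in mouse. In mouse 11 Sprr2 and 6 Lce3 genes were tested, and all rose, where 2 and 1 were tested in spiny mouse. Of 24 members tested, 16 were called, where 55.1% of all 14833 tested genes were. Of these 10 rose and 6 fell, beside 28.2% and 26.9% of all tested genes. The treated libraries lay above all untreated ones for 9 members (26.7% of all genes) and below them for 5 (24.1%). The median log2 fold change was -0.05 for the members and -0.01 for all tested genes. The members together made up 0.844% of CPM in untreated and 0.551% in treated skin, with no overlap. Without Tchh, Tchhl1 and Crnn, which moved with the hair keratins, the share was 0.609% and 0.508%, and the groups overlapped. Scaled to keratinocyte markers, 8 rose and 14 fell. Of the 10 members not tested, 9 are gene models that share exon bases with another member: Sprr2a2, Sprr2a3 and Sprr2b overlap each other, as do Sprr2f and Sprr2i, Lce1e and Lce1i, and Lce1f and Lce1h. Reads in such overlaps were not counted. For 8 of the 9 models at least 99.0% of exon bases are shared, so their counts at or near 0 carry no information on expression. Sprr2a2 shares 47.1% of its exon bases and had 0 to 4 counts per library. Sprr2d shares no exon bases and was at 0 in all 8 libraries. Reads mapping to several places were not counted either, so this 0 need not mean absent expression, which was not tested.

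In spiny mouse 5 of the 6 tested Sprr genes rose, with a median log2 fold change of 3.75 for the 6. Sprr1b was at 70.0, 41.0, 46.3 and 35.3 CPM untreated and 397, 483, 296 and 303 CPM treated (log2 fold change 2.94, SE 0.24, adjusted p 2.91e-05). Per length it was the highest member of treated spiny mouse skin, at 428 ± 102 RPKM. Sprr1a was at 201, 183, 97.6 and 89.7 CPM untreated and 261, 313, 241 and 350 CPM treated, a 2.04-fold rise (adjusted p 0.0095) that was not called under scaling to keratinocyte markers (log2 fold change 0.45). Sprr2k rose from 0.241 ± 0.176 to 18.8 ± 7.74 CPM and Sprr2e from 0.625 ± 0.322 to 14.9 ± 5.68 CPM, log2 fold changes of 6.19 and 4.56. Sprr3 rose too, from 0.128 ± 0.097 to 4.48 ± 0.804 CPM (log2 fold change 5.04, SE 0.36). Sprr4 did not pass the test, at 3.11 to 7.32 CPM untreated and 4.32 to 5.39 CPM treated. Under scaling to keratinocyte markers Sprr4 was called lower (log2 fold change -0.87, adjusted p 0.0068).

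Among the LCE genes of spiny mouse, Lce1m again fell most. It was at 486, 432, 611 and 545 CPM untreated and 11.8, 28.9, 32.2 and 9.73 CPM treated, 25.0-fold lower in the fit (log2 fold change -4.64, SE 0.41, adjusted p 3.76e-05). No treated library came near the untreated range. Lce3a, the only Lce3 gene in the spiny mouse table, rose from 4.42, 1.90, 2.42 and 3.29 CPM to 31.0, 42.6, 41.2 and 34.7 CPM (log2 fold change 3.63, SE 0.24). Lce6a rose from 23.8, 20.4, 8.31 and 10.2 CPM to 37.8, 58.5, 39.5 and 30.6 CPM (log2 fold change 1.41, SE 0.34, adjusted p 0.0069). Lce1a2 fell by 0.80 on the log2 scale, and Lce1d by 0.37 with overlapping groups. The Lce1d call was lost in 9 settings, among them 6 of the 8 fits that leave out 1 library. Lce1k rose by 0.61 on the log2 scale with overlapping groups, a call lost in 9 of 19 settings, among them keratinocyte scaling with a log2 fold change of -0.002. Lce1c and Lce1l were not called. Both were called lower under keratinocyte scaling (-0.45 and -0.73, adjusted p 0.0098 and 0.0011). Without treated replicates 3 and 4, Lce1c was instead called higher (0.38, adjusted p 0.024).

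The other envelope proteins of spiny mouse fell or were not called. Lor was at 880, 493, 1090 and 733 CPM untreated and 107, 274, 136 and 91.8 CPM treated, with no overlap (log2 fold change -2.39, SE 0.38, adjusted p 0.000672). Crct1 fell from 389, 332, 329 and 326 CPM to 147, 207, 195 and 179 CPM (log2 fold change -0.92, SE 0.11, adjusted p 0.000178). Ivl was at 121, 63.0, 76.2 and 56.3 CPM untreated and 95.5, 103, 59.9 and 66.7 CPM treated, overlapping ranges with a log2 fold change of 0.04 (SE 0.26, adjusted p 0.91).

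The opposite movement of the filaggrins was also present in spiny mouse. Flg was at 479, 171, 324 and 275 CPM untreated and 1641, 1924, 1182 and 1376 CPM treated (log2 fold change 2.29, SE 0.30, adjusted p 0.000233). Flg2 was at 1894, 832, 1843 and 1625 CPM untreated and 230, 306, 221 and 200 CPM treated (log2 fold change -2.70, SE 0.26, adjusted p 5.94e-05). In both genes the groups did not overlap. Rptn rose 4.26-fold, from 65.4 ± 38.2 to 279 ± 56.8 CPM (adjusted p 0.0012). Hrnr was the most counted of the untreated members apart from Tchh, at 1742 ± 275 CPM untreated and 1447 ± 261 CPM treated, and was not called (adjusted p 0.18). Scaled to keratinocyte markers, Hrnr was called lower (log2 fold change -0.88, adjusted p 0.000399).

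Tchh in spiny mouse was at 3524, 3116, 318 and 911 CPM untreated and 55.9, 45.2, 972 and 424 CPM treated. The inner root sheath keratins in the same libraries summed to 7508, 8850, 845 and 2571 CPM untreated and 178, 156, 2517 and 941 CPM treated. Tchhl1 and Crnn were high and low in the same libraries, and none of the 3 was called (log2 fold changes -2.39, -3.04 and -2.40; adjusted p 0.081, 0.059 and 0.10). All 3 were called lower under keratinocyte scaling (-2.91, -3.56 and -2.92) and without treated replicate 3 (-3.49, -4.18 and -3.89), and Tchh and Tchhl1 also by DESeq2 (adjusted p 0.034 and 0.032) and without untreated replicate 3. Leaving out treated replicates 3 and 4 gave -5.27, -6.76 and -6.08, each called. Without untreated replicates 1 and 2 none was called, and the median log2 fold change of the 7 S100-fused genes moved from -2.39 to -0.67.

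**Figure D4:**
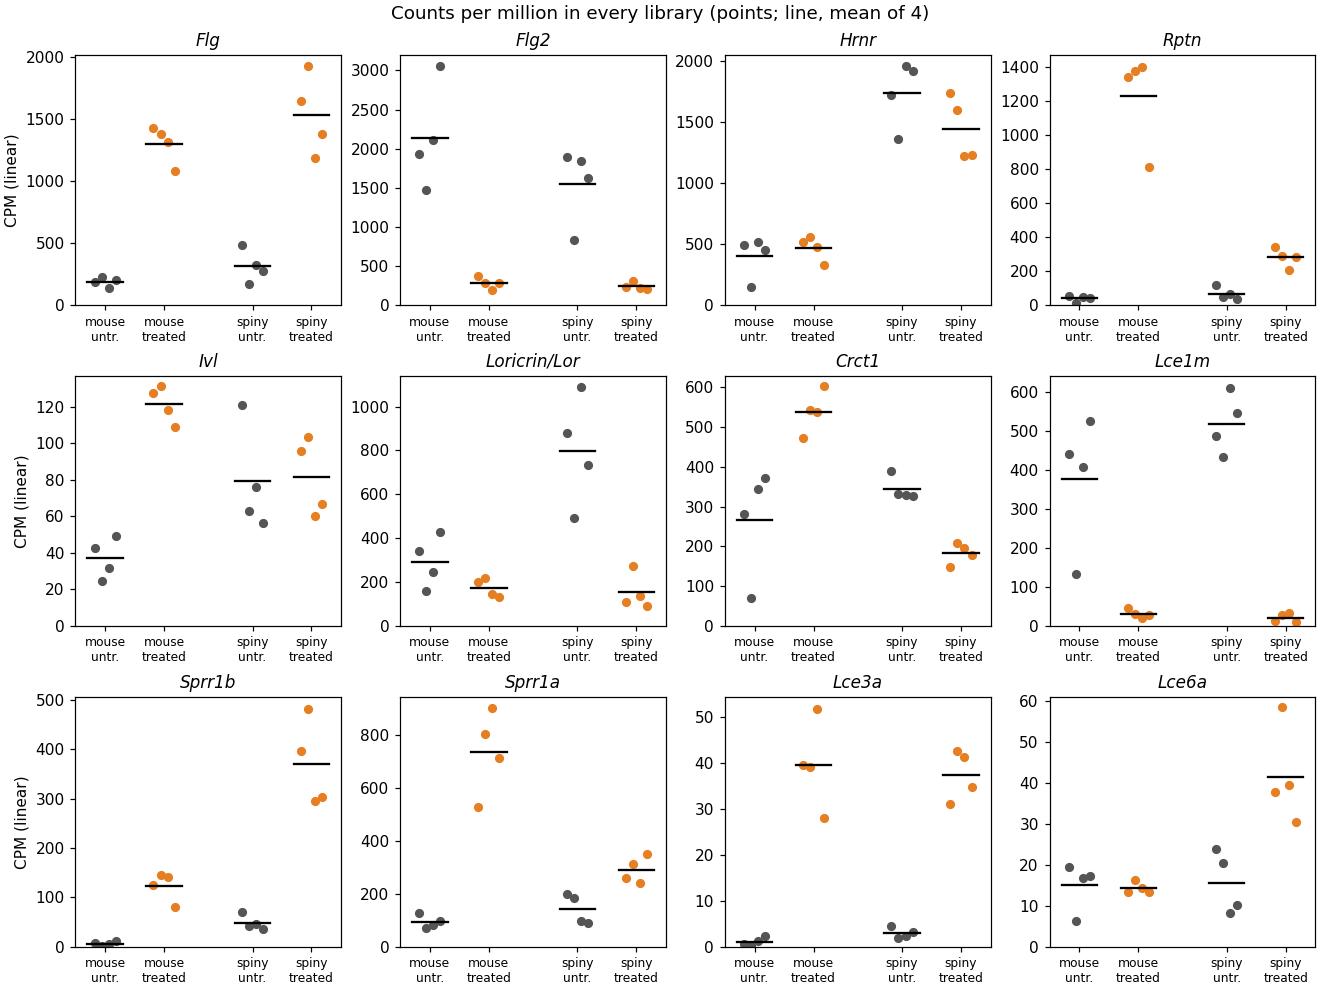
CPM on a linear scale (y axis) of 12 members in every library (points; line, mean of 4), by species and group (x axis). Flg rises and Flg2 and Lce1m fall in both species without overlap, Crct1 and Loricrin/Lor are lower after treatment in spiny mouse, and Ivl separates the groups in mouse alone.

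The species were compared by the difference of their log2 fold changes, tested as the species by treatment term over the 13656 symbols tested in both. Genes were paired by identical symbol and orthology was not checked, so a pair within Sprr2, Lce1 or Lce3 may not be the same gene. Gene models and levels differ between the tables, which cancels here only where it acts alike on both groups of a species. Of 22 members tested, 12 differed, where 46.1% of all symbols did. The difference, spiny mouse minus mouse, was below 0 for 10 members (24.7% of all symbols) and above 0 for 2 (21.4%). The median difference was -1.22 for the members and -0.03 for all symbols. Both the 10 below 0 and the member median include Tchh, Tchhl1 and Crnn (-6.85, -8.16 and -7.63), which moved with the hair keratins. Over the 23 members tested in both species, with Loricrin paired with Lor, 8 rose in both (Sprr2e, Sprr2k, Sprr1b, Sprr1a, Lce1k, Lce3a, Flg and Rptn) and 3 fell in both (Loricrin/Lor, Lce1m and Flg2). The mouse Loricrin call was lost in 11 of 17 settings, and the spiny mouse Lce1k call was also lost in several. Over all 13656 symbols 15.1% rose in both and 12.6% fell in both. No member was called in opposite directions in the reported fits, where 8.25% of all symbols were. Crct1, called lower in spiny mouse, was called higher in mouse in 7 of 17 alternative settings.

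**Figure D5:**
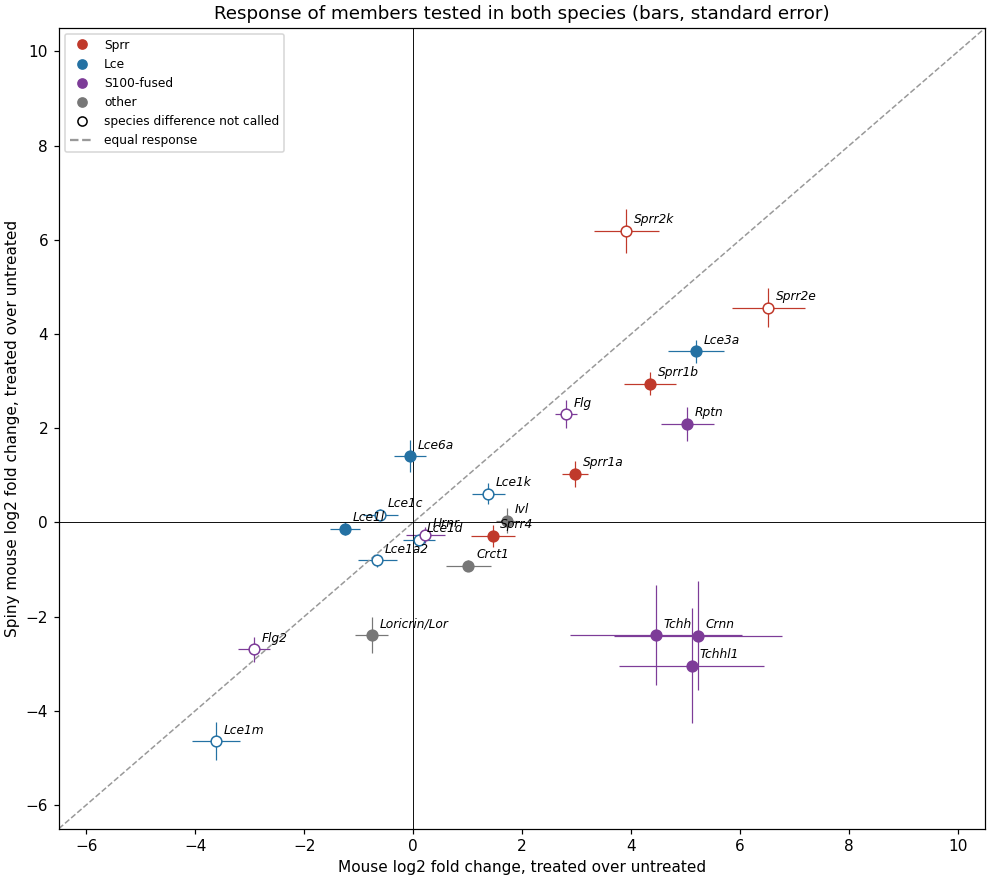
Log2 fold change in mouse (x axis) against spiny mouse (y axis) for the 23 members tested in both; bars are standard errors, filled points have a called species difference (Loricrin/Lor from the fit that paired them) and the dashed line is an equal response. Of the 13 filled points 11 lie below the line, and Lce6a and Lce1l lie above it. Flg and Flg2 stay near it, and Lce1m lies below it without a called difference (-1.03, SE 0.58).

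Sprr1a, Rptn, Ivl and Crct1 were the differences with the lowest adjusted p. The difference for Rptn was -2.94 (SE 0.59, adjusted p 0.00089), a rise in both species that was smaller in spiny mouse. For Sprr1a it was -1.94 (SE 0.37, adjusted p 0.000602) and for Ivl -1.68 (SE 0.35, adjusted p 0.0011). Crct1 had a difference of -1.93 (SE 0.46, adjusted p 0.0031), from 1.01 (not called) in mouse and -0.92 (called lower) in spiny mouse. Sprr4 differed by -1.75 (SE 0.51, adjusted p 0.011), and with Loricrin and Lor paired by name after the tables were seen, the pair differed by -1.63 (SE 0.50, adjusted p 0.015).

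Sprr1b and Lce3a, which rose in both, rose less in spiny mouse, by -1.41 (adjusted p 0.036) and -1.56 (adjusted p 0.027), but these calls were lost in 9 and 7 settings. The differences above 0 were those of Lce6a (1.47, SE 0.48, adjusted p 0.021) and Lce1l (1.12, SE 0.33, adjusted p 0.012). Lce6a rose in spiny mouse and was not called in mouse, whereas Lce1l fell in mouse (-1.25) and was not called in spiny mouse (-0.13). The Lce1l call was lost without spiny mouse untreated replicates 1 and 2 (1.07, adjusted p 0.053). Tchh, Tchhl1 and Crnn had the largest differences (-6.85, -8.16 and -7.63), in the same libraries where the hair keratins moved. That of Tchh was not called without spiny mouse untreated replicates 1 and 2 (-5.19, adjusted p 0.071).

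For Flg, Flg2, Lce1m and Hrnr no species difference was called. The difference was -0.51 (SE 0.36) for Flg, 0.23 (SE 0.39) for Flg2, -1.03 (SE 0.58) for Lce1m and -0.49 (SE 0.42) for Hrnr. Sprr2e and Sprr2k differed by -1.96 (SE 0.82, adjusted p 0.060) and 2.29 (SE 1.23, adjusted p 0.14), with wide errors at these low levels.

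Genes that act with the members were counted from fixed lists. Over all tested genes, 25.9% rose and 35.3% fell in mouse, and 28.2% rose and 26.9% fell in spiny mouse. Each list and marker count below is to be read beside these shares. Of 4 cross-linking enzymes, Tgm1, the main transglutaminase of the envelope, rose in both species, from 71.9 to 311 CPM in mouse (log2 fold change 2.11) and from 145 to 258 CPM in spiny mouse (0.84). In mouse Tgm3 also rose and Tgm2 fell, while in spiny mouse Tgm2 and Tgm5 rose. Of 9 genes that process filaggrin, 8 rose and 1 fell in mouse, and 3 rose and 1 fell in spiny mouse. Casp14, the protease of filaggrin breakdown, rose from 58.4 to 354 CPM in mouse (log2 fold change 2.60) and from 731 to 1168 CPM in spiny mouse (0.68). Padi1 and Padi3, which deiminate trichohyalin and filaggrin, were at 21.5 and 65.3 CPM in untreated mouse replicate 2 against at most 0.256 and 0.403 CPM in the other untreated libraries.

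Of 12 other envelope partners tested, 5 rose and 1 fell in mouse and 4 rose and 3 fell in spiny mouse. The spiny mouse counts are near the shares of all tested genes (28.2% and 26.9%). Envoplakin (Evpl), a plakin that anchors the early envelope, rose in mouse (log2 fold change 1.24) and fell in spiny mouse (-0.42), while cornifelin (Cnfn) rose in both (3.13 and 1.32). Krt1 rose in both species, and Krt10 was called in neither. For the lipid coat of the envelope, 6 of 10 tested genes rose and 1 fell in mouse, and 5 of 11 rose and 2 fell in spiny mouse. Aloxe3, a lipoxygenase of that coat, fell in both. Of 18 transcription factors known to act on the locus, 13 rose and 1 fell in mouse, and 7 rose and 4 fell in spiny mouse. Grhl3 rose in both (1.06 and 0.82), and Klf4 fell in spiny mouse (-0.44) and was not called in mouse (0.49, adjusted p 0.089).

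The markers of stressed, thickened epidermis rose in both species, in 4 of 4 genes in mouse and 3 of 3 in spiny mouse. Their summed level was 671 to 1739 CPM untreated and 13390 to 18650 CPM treated in mouse, and 1205 to 2156 and 6376 to 7842 CPM in spiny mouse. Krt6a had log2 fold changes of 4.89 in mouse and 4.93 in spiny mouse. Of 6 neutrophil and macrophage markers, S100a8, S100a9 and Csf3r rose in mouse, while Adgre1 and Csf1r, which mark macrophages, fell. In spiny mouse 5 of 6 rose (Adgre1, Cd68, S100a8, S100a9 and Csf3r). The 6 markers summed to 167 to 377 CPM untreated and 1026 to 1920 CPM treated in mouse, and to 293 to 316 and 2495 to 2794 CPM in spiny mouse. In mouse this sum rose although Adgre1 and Csf1r fell. T cell markers fell in 4 of 6 genes in mouse and rose in 3 of 5 in spiny mouse. Fibroblast, adipocyte and sebaceous markers had 2, 3 and 2 genes fall and 0 rise of 6 each in mouse, and 3, 4 and 2 fall with 1, 0 and 0 rise of 6 each in spiny mouse. Hair shaft markers rose in 3 of 10 genes in mouse and fell in 4 of 9 in spiny mouse. In mouse they summed to 11.6, 1265, 13.7 and 9.43 CPM untreated and 6785 to 8506 CPM treated, with no overlap. In spiny mouse the sums were 748 to 20790 CPM untreated and 78.5 to 4100 CPM treated, and they overlapped. Of the oral and forestomach markers, 1 of 3 rose in mouse and 2 of 4 fell in spiny mouse, and both tested liver genes fell in mouse, as did 2 of 3 in spiny mouse. Their part in the members' changes was not tested, apart from the scaling to keratinocyte markers given above.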

How the data were processed

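Raw read-pair counts per gene were deposited by the authors as 1 table per species. Per the file headers, featureCounts 2.0.3 counted pairs against GRCm39 with Ensembl 108 (mouse) and AcoCah2 (spiny mouse), with no strand option, and reads mapping to several places or genes were not counted. Per the submitters' processing notes, Trim Galore and HISAT2 were used. Per the labels' protocols, polyA RNA went into stranded libraries.

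Mouse identifiers were named from GENCODE M39. Within each species genes passed filterByExpr, were TMM-scaled and tested with edgeR 4.0.16 (R 4.3.3), treated over untreated, with Benjamini-Hochberg adjustment over all genes. CPM are TMM-scaled, and RPKM divides them by the deposited exon length. Alternatives covered scaling, filters, DESeq2 1.42.0, robust fitting, the replicate block, scaling to keratinocyte markers and leaving out libraries. The scripts were tested on simulated data. Every member may be named. Values in every library were set for S100-fused and other members, the 4 highest Sprr and 4 highest Lce genes, the 3 largest called changes in each direction above an average of 3 log2 CPM, and called species differences. Further values, and the printed promoters, were chosen after values were seen. Members and lists were chosen with earlier results of these data known. Untreated columns were matched by species letter and replicate number, and untreated mouse replicate 2 alone has a column suffix of unstated meaning.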

Additional observations from a re-analysis of the deposited data

Results flagged for a closer look

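Among 96 groups of 4 libraries checked, 7 had a library far from the other 3, where chance gives about 1 in 20. Untreated mouse replicate 2 was the far library for Crnn (26.4 CPM), Tchh (772 CPM), Tchhl1 (44.2 CPM) and Hrnr (149 CPM), high for the first 3 and low for Hrnr. The inner root sheath keratins summed to 1669 CPM there and its keratinocyte markers were the lowest of the mouse libraries. Treated mouse replicate 4 was low for Rptn (811 CPM), treated mouse replicate 1 was low for Tchh (3683 CPM) and untreated spiny mouse replicate 1 was high for Crct1 (389 CPM).

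The treatment effect differed between the species for 12 members by the test of the difference (spiny mouse minus mouse, log2 scale). The difference was below 0 for Tchhl1 (-8.16), Crnn (-7.63), Tchh (-6.85), Rptn (-2.94), Sprr1a (-1.94), Crct1 (-1.93), Sprr4 (-1.75), Ivl (-1.68), Lce3a (-1.56) and Sprr1b (-1.41). It was above 0 for Lce6a (1.47), which rose in spiny mouse, and for Lce1l (1.12), which fell in mouse.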

How the results depend on the processing

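The counts of called members stayed within 1.5 times the reported ones in every setting run. Leaving out 1 library gave 33 to 42 called members in mouse and 14 to 18 in spiny mouse, and 10 to 14 species differences, while leaving out the pairs of spiny mouse libraries chosen after seeing the data gave 14 and 19 called members and 8 and 10 differences. Other settings gave 34 to 40, 14 to 22 and 10 to 13. Keratinocyte scaling moved the median log2 fold change of all genes to -1.14 in mouse and -0.61 in spiny mouse. Other scalings moved it to between -0.38 and -0.05 in mouse. Higher genes made up 42.4% of all mouse calls, 28.6% with library size alone and 5.81% under keratinocyte scaling, and 51.1% and 8.62% in spiny mouse.

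Called values, and family medians by more than the spread, changed sign under keratinocyte scaling: in mouse for Hrnr (-0.71), Lce1d (-0.80), Lce1i (-0.78) and the median of the Lce genes (-0.10), and in spiny mouse for Ivl (-0.55), Lce1c (-0.45), Lce1k (-0.002) and the median of the Lce genes (-0.59). The Lce median of spiny mouse, 0.01 as reported, also lay below 0 in other settings, down to -0.13 without treated replicate 2. Keratinocyte scaling sets each library by its keratinocyte markers, which rose. For single members and family medians, 58 values in all settings lost a call, 56 gained one, 16 medians moved by more than the spread and 1860 values stayed on their side. Across the untreated mouse libraries 3 counts equal 0.110 to 0.137 CPM, and mouse Sprr3 was not detectable above that level. This floor covers counting error only.

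Same-numbered untreated and treated libraries did not deviate together (correlations of -0.008 to 0.023 in mouse and -0.53 to -0.20 in spiny mouse), so the numbers were not taken as pairs. Fitting the replicate block left 36 called members for mouse, 14 for spiny mouse and 10 species differences.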
